A study of Mus musculus with 40 samples.

Results

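The enzymes that make and remove glyoxylate in the liver were followed across a dose range of TCDD, the most toxic of the chlorinated dioxins and an environmental contaminant that acts through the aryl hydrocarbon receptor (AhR). The genes were taken by symbol as a list of 7 (Hao1, Hao2, Agxt, Agxt2, Grhpr, Hoga1 and Prodh2) out of 55359 genes in the count tables, and all 7 were matched to an Ensembl identifier. The list was chosen by pathway, around the measured fall of Hao1 at the 2 highest doses, so the values of these genes at 10 and 30 μg/kg are given as a description and without p-values. Of the 7, 6 passed the filter on low counts, and Hao2 did not.

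Hepatic RNA-Seq libraries came from 40 male C57BL/6 mice (Charles Rivers), 1 library per mouse, with 5 mice in each of 8 groups. From postnatal day 30, mice were gavaged every 4 days over 28 days with sesame oil alone (vehicle) or with TCDD in sesame oil, at 30, 10, 3, 1, 0.3, 0.1 or 0.03 μg/kg, and livers were collected on day 58. All groups shared the oil, the strain, the sex and the age, and no animal carried an engineered allele. Whole liver was sequenced, so a lower level of a hepatocyte gene through fewer hepatocytes cannot be told apart from less RNA per hepatocyte.

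Glyoxylate is a small reactive aldehyde acid that arises in hepatocytes from glycolate and from the breakdown of hydroxyproline, an amino acid released from collagen. If it is not turned into glycine or reduced back to glycolate, lactate dehydrogenase oxidises it to oxalate, which no mammalian enzyme degrades and which forms calcium oxalate stones in the kidney. Inherited loss of Agxt, Grhpr or Hoga1 causes primary hyperoxaluria, and silencing of the HAO1 message in liver is used to treat a form of that disease.

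Libraries held between 15.5 M and 21.0 M counts assigned to genes, with a median of 17.5 M. Cyp1a1, the classical AhR target gene, rose from 1.66 ± 0.480 CPM (CPM, counts scaled to library size, SD, n = 5) in vehicle to 144 ± 53.2 CPM at 0.03 μg/kg, 1325 ± 237 CPM at 0.1 μg/kg and 3734 ± 507 CPM at 0.3 μg/kg. From 1 to 30 μg/kg the group means lay between 5767 and 6814 CPM, so this gene separated treated mice from vehicle and did not separate the 4 highest doses. The liver marker albumin (Alb) was measured at 83015 CPM in vehicle. A single library stood apart from the liver label. Replicate 2 at 10 μg/kg held 5402 counts over 8 kidney marker genes, against at most 70 in any of the other 39 libraries. The fold changes of the 6 tested glyoxylate genes at 10 μg/kg are therefore given with and without that mouse. Without it the neighbouring gene lists gave 8 higher and 17 lower calls in place of 9 and 16. These lists hold 10, 9, 17, 6, 14, 15 and 12 tested genes, the last 2 being peroxisome assembly genes and hepatocyte transcription factors. Over all genes, 13.6% were called higher and 8.13% lower at 10 μg/kg. At 30 μg/kg, replicate 1 had the highest level of all 6 tested genes among its 5 mice, and their fold changes are also given without it.

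The 6 tested genes lie on separate chromosomes. In the GENCODE M21 annotation of the GRCm38 build, Hao1 spans chr2:134497361-134554368 on the minus strand, Agxt spans chr1:93135240-93145421, Grhpr spans chr4:44981395-44990734, Hoga1 spans chr19:42045610-42070953, Prodh2 spans chr7:30493622-30513402 and Agxt2 spans chr15:10358532-10410153, the last 5 on the plus strand. Hao2, the paralogue of Hao1, lies at chr3:98874521-98893239 on the minus strand. The submitters' notes name both GRCm39 and mm10, and which of them gave the counts is not stated, so these positions are for orientation. Agxt2 and Hoga1 each overlap another annotated gene on the same strand. The gene overlapping Agxt2 had 0 counts in every library, and the gene overlapping Hoga1 had at most 157 counts and a median of 65.5.

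The DNA just before 3 of the genes is shown because these 3 mark the range of the response: Hao1, with the largest change, Prodh2, with the next largest at 30 μg/kg, and Agxt2, with the smallest. The sequences are from RefSeq (build GRCm38.p6), run 5′ to 3′ on the strand of the gene and stop at the base before the annotated gene. They cover chr2:134554369-134554602 for Hao1, chr7:30493408-30493621 for Prodh2 and chr15:10358283-10358531 for Agxt2. Capitals mark matches to the motifs named in the next paragraph.
Hao1: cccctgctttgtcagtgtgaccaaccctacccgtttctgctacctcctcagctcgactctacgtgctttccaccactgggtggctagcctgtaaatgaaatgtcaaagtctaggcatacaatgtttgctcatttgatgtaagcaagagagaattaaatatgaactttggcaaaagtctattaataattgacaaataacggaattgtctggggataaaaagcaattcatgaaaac
Prodh2: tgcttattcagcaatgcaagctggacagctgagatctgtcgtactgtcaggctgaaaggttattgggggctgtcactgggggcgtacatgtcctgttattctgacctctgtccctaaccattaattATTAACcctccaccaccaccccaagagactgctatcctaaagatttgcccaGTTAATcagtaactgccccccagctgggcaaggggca
Agxt2: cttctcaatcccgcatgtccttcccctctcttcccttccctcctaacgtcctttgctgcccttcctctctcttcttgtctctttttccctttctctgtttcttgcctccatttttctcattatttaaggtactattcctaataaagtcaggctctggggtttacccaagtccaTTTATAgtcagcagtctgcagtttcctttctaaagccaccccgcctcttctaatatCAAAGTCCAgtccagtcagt

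Motifs were searched on both strands in the 250 bases before each RefSeq start of the 7 genes and of all 32536 distinct promoters in the table. The core of the dioxin response element, GCGTG, to which the AhR complex binds, was found in 1 of the 7 promoters, that of Hoga1, at 98 bases before the start, and in 28.3% of all promoters. It was not among the letters of the Hao1 stretch. A core for the hepatocyte factor HNF1, GTTAAT, was found in 3 of 7 (Hao2, Hoga1 and Prodh2) and in 6.47% of all promoters. The 2 matches in Prodh2 are both in the stretch shown above. A core for HNF4, CAAAGTCCA, was found in Agxt2 alone of the 7, at 21 bases before the start, and in 0.387% of all promoters. The letters TATAAA were also found in Agxt2 alone of the 7, at 77 bases before the start and on the strand opposite to the gene, where they read TTTATA above. On either strand they were found in 12.3% of all promoters. The full HNF1 palindrome (GTTAAT, any base, then ATTAAC) and the C/EBP palindrome TTGCGCAA were found in 0 of 7. These matches describe letters in a short window and were not tested for binding. None of the motifs overlapped another in the stretches shown.

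In vehicle livers the enzymes were far from equally abundant. Per kilobase of exon, Agxt was measured at 212 ± 32.1 CPM per kb (SD, n = 5), Grhpr at 184 ± 22.9, Prodh2 at 133 ± 8.19, Hao1 at 119 ± 15.7, Hoga1 at 65.7 ± 8.01, Agxt2 at 45.7 ± 4.10 and Hao2 at 0.0668 ± 0.0657 CPM per kb. The ranges of the mice overlapped between Agxt and Grhpr and between Prodh2 and Hao1, and not between the other neighbours in that order. At 30 μg/kg the order had changed to Grhpr at 66.7 ± 12.9 CPM per kb, then Agxt, Agxt2, Prodh2 and Hoga1 between 46.4 and 18.1, with Hao1 at 0.0694 ± 0.101 CPM per kb, next to Hao2 at 0.0685 ± 0.0788. There, only Hoga1 and Hao1 were neighbours whose ranges did not overlap.

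Hao1 encodes glycolate oxidase, the peroxisomal flavin enzyme that oxidises glycolate to glyoxylate and releases hydrogen peroxide. The 5 vehicle mice measured 242, 287, 320, 280 and 231 CPM. Mice given 0.03, 0.1 or 0.3 μg/kg measured 252 to 341, 262 to 307 and 228 to 322 CPM, and each of these groups overlapped vehicle. At 1 μg/kg the 5 mice measured 216, 217, 203, 188 and 231 CPM.

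All 5 mice at 1 μg/kg were below the lowest vehicle mouse, but the fitted log2 fold change of -0.37 (SE 0.32) did not pass the test, with an edgeR quasi-likelihood adjusted p of 0.686 (Benjamini-Hochberg over all genes tested). At 3 μg/kg the mice measured 171, 146, 176, 119 and 145 CPM, again all below vehicle. Its fitted log2 change from vehicle, -0.85 (SE 0.32), had an edgeR adjusted p of 0.0924, and Hao1 was not called there either. Called means an adjusted p under 0.05 and a fold change of at least 1.5, a rule that 2.78% of the 15373 genes tested met at 1 μg/kg and 6.75% met at 3 μg/kg. How many of all genes had every mouse below vehicle at these doses was not counted. The SE of 0.32 for Hao1 came from the fit over all groups, which pools the spread of a gene across doses. That SE and the adjusted p therefore also carry the spread at the higher doses, and do not describe vehicle and these doses alone. When vehicle and a single dose were fitted without the other groups, the log2 fold change of Hao1 was -0.36 (SE 0.097) at 1 μg/kg, under the fold threshold. At 3 μg/kg it was -0.84 (SE 0.12) in such a fit and the gene was called.

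The mice at 10 μg/kg measured 20.9, 19.3, 2.92, 6.95 and 43.0 CPM for Hao1, which is 1.07% to 15.8% of the vehicle mean. All 5 were below every mouse at 3 μg/kg, and the highest of them was at 43.0 and the lowest at 2.92 CPM. The fit gave -3.87 (SE 0.36) on the log2 scale against vehicle, or -3.88 (SE 0.40) with replicate 2 left out.

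The message was near the floor at 30 μg/kg, where the 5 libraries held 12, 0, 4, 0 and 2 Hao1 counts, or 0.555, 0, 0.153, 0 and 0.0843 CPM, and no mouse reached 0.21% of the vehicle mean. A count of 0 allows up to 3 counts. Summed over the group, 18 counts stood against 21648 in vehicle, which after scaling is a level 1818-fold lower (exact 95% interval 1150 to 3069, counting error only). Of the 18 counts, 12 came from replicate 1, and without that mouse the level was 4479-fold lower (exact 95% interval 2058 to 12207) and the fitted log2 fold change was -11.98 (SE 0.62) in place of -10.76 (SE 0.55). The fitted log2 change from 10 to 30 μg/kg was -6.89 (SE 0.53), a larger step than that of -3.02 (SE 0.35) from 3 to 10 μg/kg, and both were larger than the -0.48 (SE 0.32) from 1 to 3 μg/kg. Hao1 had the 5th lowest log2 fold change among all 15373 genes at 30 μg/kg and the 21st lowest at 10 μg/kg.

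**Figure D1:**
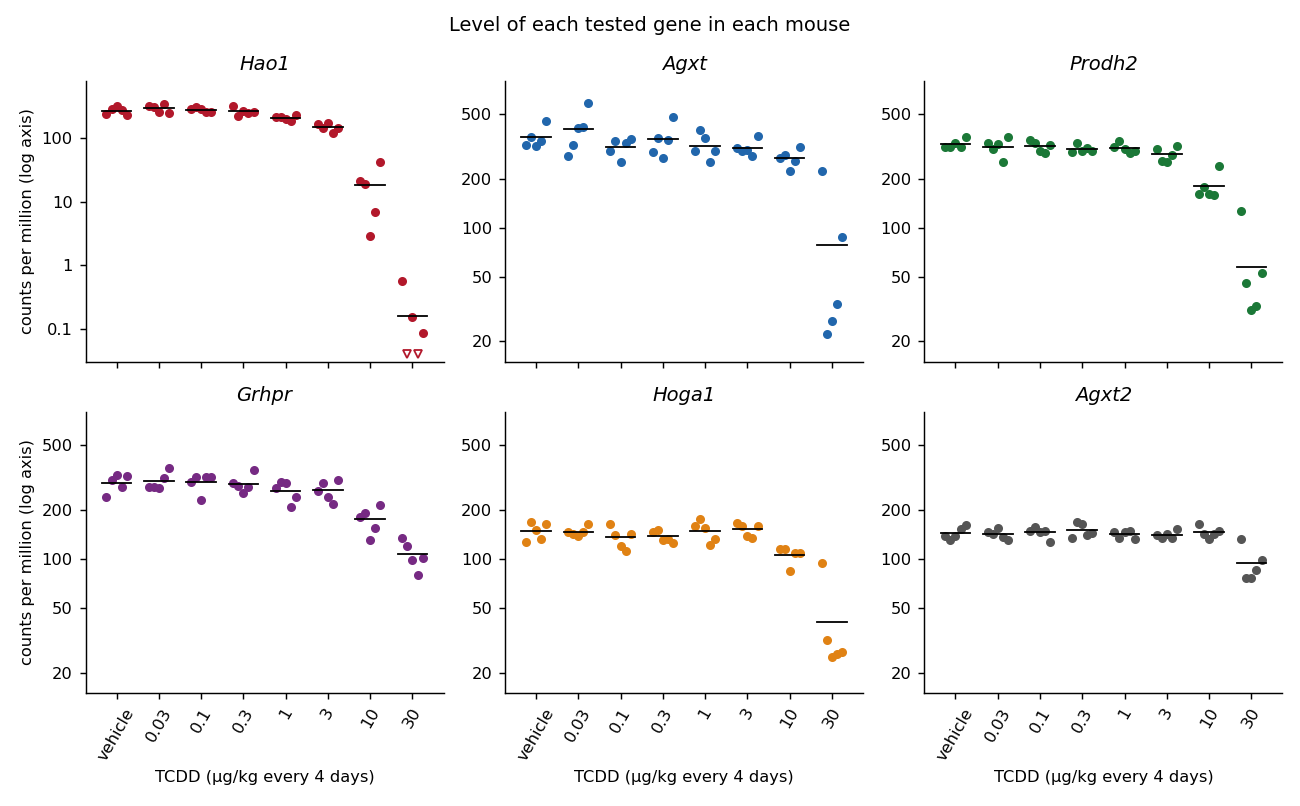
Level of the 6 tested genes in each mouse, in CPM on a log axis, against the TCDD dose. Points are mice (5 per dose), bars are group means, and open triangles stand for 0 counts, and the Hao1 panel has a longer axis than the other 5. Hao1 goes from 231 to 320 CPM in vehicle to at most 0.555 CPM at 30 μg/kg, while Agxt2 stays between 128 and 170 CPM up to 10 μg/kg, and the first mouse at 30 μg/kg lies above the other 4 in every panel.

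Hao2 encodes another peroxisomal hydroxyacid oxidase, which prefers long-chain substrates and is abundant in kidney. It was near or below the floor of 3 counts in liver: outside replicate 2 at 10 μg/kg, 39 libraries held a median of 1 count and at most 12, 14 of them held 0, and 28 held 3 or fewer. The highest of them was 0.667 CPM. No fold change is given for a gene at this level. Replicate 2 at 10 μg/kg held 238 Hao2 counts (11.0 CPM). The same library held 1652 counts of Kap, 1302 of Umod, 948 of Slc34a1, 657 of Slc12a1, 384 of Miox, 285 of Slc12a3 and 164 of Aqp2, genes of the kidney tubule, of which no other library held more than 17 counts each. It also held 185 counts of Xist, the RNA of the inactive X chromosome in females, against at most 9 elsewhere. The kidney marker list was drawn up after the Hao2 count was seen, and the part of kidney RNA in the other genes of that library was not tested. The other 4 mice at 10 μg/kg held 7, 0, 0 and 0 Hao2 counts.

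**Figure D2:**
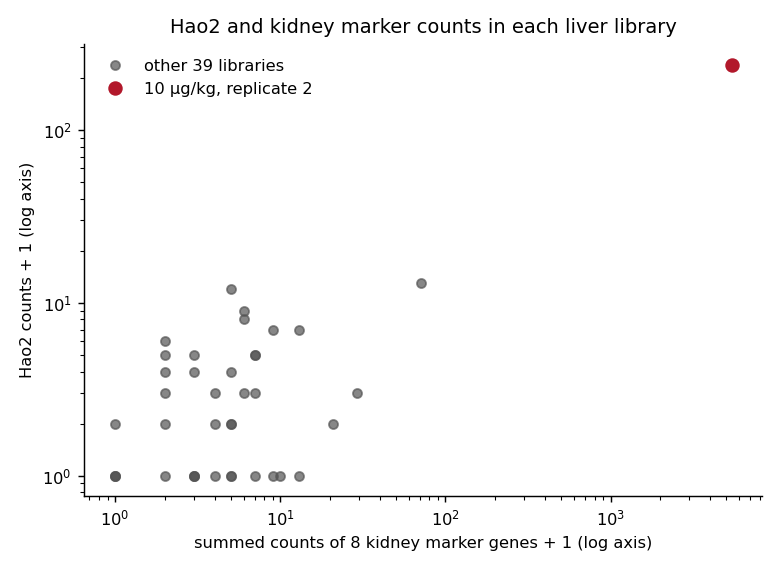
Hao2 counts plus 1 against the summed counts of 8 kidney marker genes plus 1, both on log axes, in each of the 40 liver libraries. Replicate 2 at 10 μg/kg, with 238 Hao2 counts and 5402 kidney marker counts, stands alone, and the other 39 libraries hold at most 12 and 70.

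Agxt encodes alanine:glyoxylate aminotransferase, which converts glyoxylate to glycine in the peroxisome. The vehicle mice measured 325, 360, 318, 343 and 453 CPM. Mice at 10 μg/kg measured 271, 280, 222, 259 and 315 CPM, all below the lowest vehicle mouse, with a log2 fold change of -0.42 (SE 0.34), or -0.43 without replicate 2, which was not called. Mice at 30 μg/kg measured 223, 22.2, 26.8, 34.2 and 87.4 CPM.

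The spread of Agxt at 30 μg/kg was the widest of the tested genes apart from Hao1, from 6.16% to 62.1% of the vehicle mean. The log2 fold change was -2.19 (SE 0.35), and -3.08 (SE 0.27) if replicate 1 was left out. At doses up to 3 μg/kg every group overlapped vehicle.

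Grhpr encodes glyoxylate and hydroxypyruvate reductase, which reduces glyoxylate to glycolate, the reverse direction of the Hao1 step. The vehicle mice measured 239, 306, 329, 277 and 321 CPM. Mice at 10 μg/kg measured 182, 192, 131, 156 and 215 CPM and at 30 μg/kg 134, 121, 98.8, 80.0 and 101 CPM. Neither group overlapped vehicle, and the ranges at 10 and 30 μg/kg overlapped each other by a single mouse on each side. The log2 fold changes were -0.75 (SE 0.14) at 10 μg/kg, or -0.79 (SE 0.15) without replicate 2, and -1.46 (SE 0.14) at 30 μg/kg, or -1.56 (SE 0.14) without replicate 1.

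Prodh2 and Hoga1 encode the first and the last enzyme of mitochondrial hydroxyproline breakdown, hydroxyproline dehydrogenase and 4-hydroxy-2-oxoglutarate aldolase, the latter of which releases glyoxylate. Prodh2 measured 314, 315, 334, 314 and 360 CPM in vehicle, 163, 178, 163, 160 and 240 CPM at 10 μg/kg and 127, 45.6, 31.1, 33.1 and 52.6 CPM at 30 μg/kg. Hoga1 measured 128, 168, 151, 132 and 163 CPM in vehicle, 114, 115, 84.7, 109 and 108 CPM at 10 μg/kg and 94.2, 31.9, 24.8, 26.1 and 26.8 CPM at 30 μg/kg. Both genes were below the lowest vehicle mouse in all 5 mice at 10 and at 30 μg/kg. Over all genes, 8.13% were called lower at 10 μg/kg and 18.9% at 30 μg/kg. How many of all genes separate from vehicle mouse by mouse was not counted, here or for the genes above.

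The fitted change of Prodh2 was larger than that of Hoga1 at both doses. For Prodh2 the log2 fold change was -0.86 (SE 0.20) at 10 μg/kg and -2.50 (SE 0.21) at 30 μg/kg. For Hoga1 it was -0.48 (SE 0.21), not called, and -1.87 (SE 0.22). Replicate 1 at 30 μg/kg measured more than any other mouse of its group for both, and without it the log2 fold changes were -3.01 (SE 0.14) for Prodh2 and -2.44 (SE 0.12) for Hoga1. Without replicate 2 at 10 μg/kg they were -0.85 (SE 0.22) for Prodh2 and -0.51 (SE 0.23) for Hoga1. The difference between the genes was not tested.

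Agxt2 encodes the mitochondrial alanine:glyoxylate aminotransferase, which also acts on β-aminoisobutyrate and on asymmetric dimethylarginine. It was the steadiest of the 6. Vehicle mice measured 139, 130, 138, 154 and 162 CPM and mice at 10 μg/kg measured 164, 142, 132, 143 and 148 CPM, with a log2 fold change of 0.01 (SE 0.10), or 0.02 (SE 0.11) without replicate 2. Mice at 30 μg/kg measured 133, 76.7, 76.0, 85.9 and 98.6 CPM. Replicate 1 overlapped vehicle and the other 4 did not.

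The log2 fold change of Agxt2 at 30 μg/kg was -0.62 (SE 0.11), a fold of 1.54, so the call sat close to the 1.5 threshold. Without replicate 1 it was -0.78 (SE 0.09). It was not called when vehicle replicate 5 (-0.58) or replicate 2 (-0.58) or 3 (-0.57) at 30 μg/kg was left out. Nor did it reach the fold threshold with a filter at a mean of 50 counts (-0.57) or in the mice with title numbers up to 27 alone (-0.39). Scaled to total counts alone the value was -0.14, under the fold threshold, so Agxt2 was not called. The median of all genes was then 0.52 rather than 0.03. A change of scaling shifts all genes together, so the distance of Agxt2 from the median gene is no separate result.

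Counted together, 0 of the 6 tested genes were called by edgeR at any of the 5 doses up to 3 μg/kg. Of all genes tested, 0.0195% were called at 0.03 μg/kg and 0.0976% at 0.1 μg/kg, and the share was 0.468% with 0.3 μg/kg, 2.78% with 1 μg/kg and 6.75% with 3 μg/kg. DESeq2 and limma, also fitted over all groups, called 0 of them at these doses. With vehicle and 3 μg/kg fitted alone, edgeR called 1 of them, Hao1. The lowest adjusted p of any of them in edgeR was 1 at 0.03 and at 0.1 μg/kg, 0.967 at 0.3 μg/kg, 0.642 at 1 μg/kg and 0.0924 at 3 μg/kg. At an unadjusted p under 0.05, 1 of the 6, Hao1, passed at 3 μg/kg and 0 did at the 4 lower doses. At 10 μg/kg, 3 of 6 were called lower (Hao1, Grhpr and Prodh2) where 8.13% of all genes were called lower, and at 30 μg/kg 6 of 6 were called lower where 18.9% were. The median log2 fold change of the 6 was -0.18 at 3 μg/kg, -0.62 at 10 μg/kg and -2.03 at 30 μg/kg, against 0.00, 0.01 and 0.03 over all genes. Since the list was built with the Hao1 result known, nothing is read from the counts at the 2 highest doses.

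**Figure D3:**
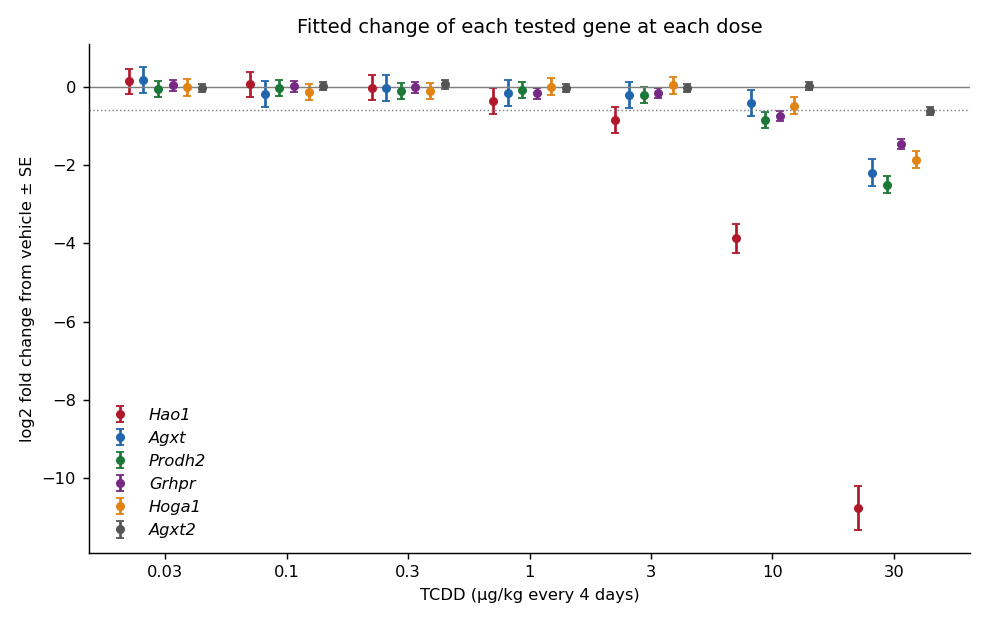
Fitted log2 fold change from vehicle with its standard error for the 6 tested genes at each of 7 doses. The dotted line marks a fold of 1.5 lower. Points lie within 0.37 of 0 up to 1 μg/kg, Hao1 separates at 3 μg/kg (-0.85) and reaches -10.76 at 30 μg/kg, where the other 5 lie between -0.62 and -2.50.

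Levels of cell type markers moved at 10 and 30 μg/kg, and some already at lower doses. At 1 μg/kg, 2 of 8 hepatocyte markers were called lower and 3 of 7 macrophage markers higher. The hepatocyte marker sum was 109116 ± 6690 CPM (102159 to 119642) at 0.3 μg/kg, below every vehicle mouse. Over all genes, 2.78% were called at 1 μg/kg, and 18.9% were called lower and 23.2% higher at 30 μg/kg. Summed over 8 hepatocyte markers, the level was 132130 ± 9789 CPM (SD, n = 5, range 121554 to 147254) in vehicle, 103396 ± 17230 CPM (79512 to 127484) at 10 μg/kg and 56075 ± 18213 CPM (38064 to 80808) at 30 μg/kg, where 7 of the 8 were called lower, among them Apoa1, the protein of high-density lipoprotein (-3.20), the fibrinogen chains Fga (-2.94) and Fgb (-2.46), and Ttr, the thyroxine carrier (-1.54). Transferrin was not called (-0.32). All 7 macrophage markers were called higher at 30 μg/kg and their sum was 849 ± 282 CPM (485 to 1191) against 171 ± 25.0 CPM (140 to 199) in vehicle, with Marco (5.35), Cd68 (3.03), Cd5l (2.82) and Adgre1 (2.63) leading.

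Stellate and fibroblast markers summed to 1070 ± 318 CPM (528 to 1311) at 30 μg/kg against 135 ± 49.2 CPM (98.1 to 220) in vehicle. Of these 7, 6 were called higher, led by the collagen genes Col1a1 (4.54), Col1a2 (3.35) and Col3a1 (2.85) and by Acta2, smooth muscle actin (2.94). Among the other lists, 3 of 4 tested cholangiocyte markers were called higher (Epcam, Krt7 and Krt19) and Sox9 was called lower, 3 of 5 endothelial markers were called higher (Pecam1, Lyve1 and Kdr), and 4 of 5 lymphocyte markers were called higher (Ptprc, Cd3e, Ms4a1 and Cd79a). The cholangiocyte sum was 16.9, 96.1, 21.9, 20.9 and 15.9 CPM in the mice at 30 μg/kg against 14.6 to 19.3 CPM in vehicle. The 96.1 CPM was replicate 2, and replicates 1 and 5 lay inside the vehicle range. The endothelial sum was 191 to 254 against 116 to 160 CPM, and the lymphocyte sum was 26.9 to 39.1 against 4.91 to 11.7 CPM. The cholangiocyte channel Cftr had 0 counts in at least 1 vehicle mouse and was not tested.

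Replicate 1 at 30 μg/kg, the mouse with the most of every glyoxylate gene, had the highest hepatocyte marker sum of its group (80808 CPM) and the lowest macrophage (485 CPM) and stellate sums (528 CPM). Relative to the summed hepatocyte markers, the log2 change at 30 μg/kg was -9.75 for Hao1, -1.34 for Prodh2, -1.19 for Agxt, -0.69 for Hoga1 and -0.13 for Grhpr, whereas Agxt2 was 0.65 higher. On that scale all 5 mice were below the lowest vehicle mouse for Hao1 and Prodh2, 4 of 5 for Agxt and Hoga1, 3 of 5 for Grhpr and 0 of 5 for Agxt2. The same values at 10 μg/kg were -3.64 for Hao1, -0.50 for Prodh2, -0.40 for Grhpr, -0.12 for Hoga1, -0.05 for Agxt and 0.39 for Agxt2. Albumin made up most of the marker sum (83015 of 132130 CPM in vehicle), and single markers differed from it, with Transferrin (-0.32) falling short of Agxt2 (-0.62) in size and Apoa1 (-3.20) past every glyoxylate gene but Hao1. This scale was added after the data were examined and carries no test, and the part of the other cell types in the values was not tested.

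Genes around the pathway showed which neighbouring steps moved with it. Of 10 tested genes that make, use or transport glyoxylate, glycolate and oxalate, 3 were called lower at 10 μg/kg and 6 at 30 μg/kg, and 0 were called higher at either by edgeR, DESeq2 or limma or at an unadjusted p under 0.05. Over all genes, 21.8% were called at 10 μg/kg (8.13% lower and 13.6% higher) and 42.1% at 30 μg/kg (18.9% lower and 23.2% higher). Their median log2 fold change at 30 μg/kg was -1.38. Pipox, the peroxisomal oxidase that breaks down pipecolate and sarcosine, fell by 2.57 on the log2 scale (SE 0.19, edgeR adjusted p = 3.9e-14), from 301 ± 20.1 to 50.7 ± 29.3 CPM. Hyi, hydroxypyruvate isomerase, fell by 2.54 (SE 0.23, edgeR adjusted p = 4.13e-12), and Glyctk, glycerate kinase, which draws on the hydroxypyruvate branch, fell by 2.15 (SE 0.22, edgeR adjusted p = 1.91e-10). These 3 were also the ones called at 10 μg/kg. Gpt, the cytosolic alanine aminotransferase, fell by 1.67 (SE 0.24, edgeR adjusted p = 2.94e-07).

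Gpt2 (-1.16) and the sulfate and oxalate exchanger Slc26a1 (-1.59) completed the 6. Ldha, the lactate dehydrogenase subunit that can turn glyoxylate into oxalate, had a log2 fold change of -0.10 (SE 0.13, edgeR adjusted p = 0.562) at 30 μg/kg and 0.20 (SE 0.13, edgeR adjusted p = 0.278) at 10 μg/kg and was not called. Ldhb and Pgp were not called either. The apical exchanger Slc26a6 (-0.57, SE 0.22, edgeR adjusted p = 0.0275) passed the p threshold at 30 μg/kg and missed the fold threshold, and Dao was too low to test.

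Around hydroxyproline and proline, 3 of 9 genes tested at 30 μg/kg were called higher and 2 lower, near the shares over all genes (23.2% and 18.9%), and at 10 μg/kg 4 were called higher by edgeR. There 0 were called lower by edgeR, DESeq2 or limma, with 2 lower at an unadjusted p under 0.05 in edgeR. Aldh18a1, the first enzyme of proline synthesis, rose from 1.33 ± 0.499 to 9.94 ± 2.04 CPM (2.91, SE 0.27, edgeR adjusted p = 8.93e-12). Pepd, the dipeptidase that frees proline and hydroxyproline from collagen peptides, rose by 0.59 (edgeR adjusted p = 0.000222). Pepd had already risen at 3 μg/kg, by 0.94 (SE 0.13, edgeR adjusted p = 2.86e-06). At 1 μg/kg 1 of the 9 genes was called higher by edgeR, where 2.78% of all genes were called. Prodh, which oxidises proline rather than hydroxyproline, was higher at 10 μg/kg (0.66, edgeR adjusted p = 0.0301) and lower at 30 μg/kg (-0.66, edgeR adjusted p = 0.0185), so it differed from Prodh2 in direction at 10 μg/kg. Got2, the mitochondrial aspartate aminotransferase, fell by 1.07 on the log2 scale at 30 μg/kg.

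Glycine, the product of Agxt, is linked to serine by genes that were called in both directions. Of 17 tested at 30 μg/kg, 9 were called lower and 4 higher, and at 10 μg/kg 4 were called lower and 4 higher. Over all genes, 18.9% were called lower and 23.2% higher at 30 μg/kg, and 8.13% and 13.6% at 10 μg/kg. The higher calls at 30 μg/kg were thus near the share over all genes. The largest falls were those of Sds, serine dehydratase (-2.90, SE 0.31, edgeR adjusted p = 3.72e-10), Gnmt, glycine N-methyltransferase (-2.32, SE 0.28, edgeR adjusted p = 3.85e-09), Shmt1, cytosolic serine hydroxymethyltransferase (-2.24, SE 0.17, edgeR adjusted p = 7.3e-14) and Sardh, sarcosine dehydrogenase (-2.13, SE 0.36, edgeR adjusted p = 3.4e-06). The genes called higher were those of serine synthesis from glycolysis, Psat1 (6.17, SE 0.44), Phgdh (4.15, SE 0.85) and Psph (1.52, SE 0.19), together with Gatm, which uses glycine to make guanidinoacetate (0.76, SE 0.19). Psat1 rose from 0.770 ± 0.197 CPM in vehicle to 56.4 ± 26.5 CPM at 30 μg/kg and was called from 0.3 μg/kg (2.13, edgeR adjusted p = 0.00828) upwards. Phgdh remained low, at 2.54 ± 1.52 CPM.

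Agxt2 shares substrates with pyrimidine breakdown and methylarginine removal. At 10 μg/kg 0 of the 6 genes of that list were called by edgeR, DESeq2 or limma. The 2 at an unadjusted p under 0.05, Dpys (edgeR adjusted p = 0.0235) and Ddah1 (edgeR adjusted p = 0.00331) passed the adjusted p threshold and not the fold threshold, where 31.8% of all genes passed the adjusted p alone. At 30 μg/kg 5 were called lower and 1 higher, where 18.9% of all genes were called lower and 23.2% higher. Dpys, dihydropyrimidinase (-2.33, SE 0.21), and Abat, which removes GABA and β-alanine (from 427 ± 46.2 to 107 ± 94.3 CPM), fell, as did Ddah1, which hydrolyses methylarginines (-1.13, SE 0.11) and Upb1, β-ureidopropionase (-1.03, SE 0.14). Ddah2 rose by 1.05 (SE 0.24) from a low level of 3.34 ± 0.518 CPM. The differences between these genes were not tested.

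Hao1 and Agxt work inside the peroxisome, and most of the other enzymes of its matrix were lower as well. Of 14 tested at 30 μg/kg, 9 were called lower and 1 higher, and at 10 μg/kg 6 were called lower and 0 higher (0 by DESeq2 and limma, 1 at an unadjusted p under 0.05). The shares over all genes were 18.9% lower and 23.2% higher at 30 μg/kg, and 8.13% and 13.6% at 10 μg/kg. Uox, urate oxidase, went from 1740 ± 242 to 255 ± 141 CPM (-2.77, SE 0.21, edgeR adjusted p = 5.6e-14), Gstk1 from 142 ± 23.9 to 35.8 ± 19.5 CPM (-1.99, SE 0.19) and Phyh, which hydroxylates phytanoyl-CoA, from 1916 ± 128 to 538 ± 99.0 CPM (-1.83, SE 0.11). Ehhadh, the peroxisomal bifunctional enzyme, rose by 1.55 (SE 0.28, edgeR adjusted p = 9.49e-06). At 1 μg/kg 1 of the 14 was called lower by edgeR, where 2.78% of all genes were called. Uox (-0.76, edgeR adjusted p = 0.00785) and Crat, carnitine acetyltransferase (-1.68, SE 0.22, edgeR adjusted p = 7.54e-07), were called lower at 3 μg/kg. Hao1 was at -0.85 (SE 0.32) there and was not called, and the difference between these genes was not tested.

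**Figure D4:**
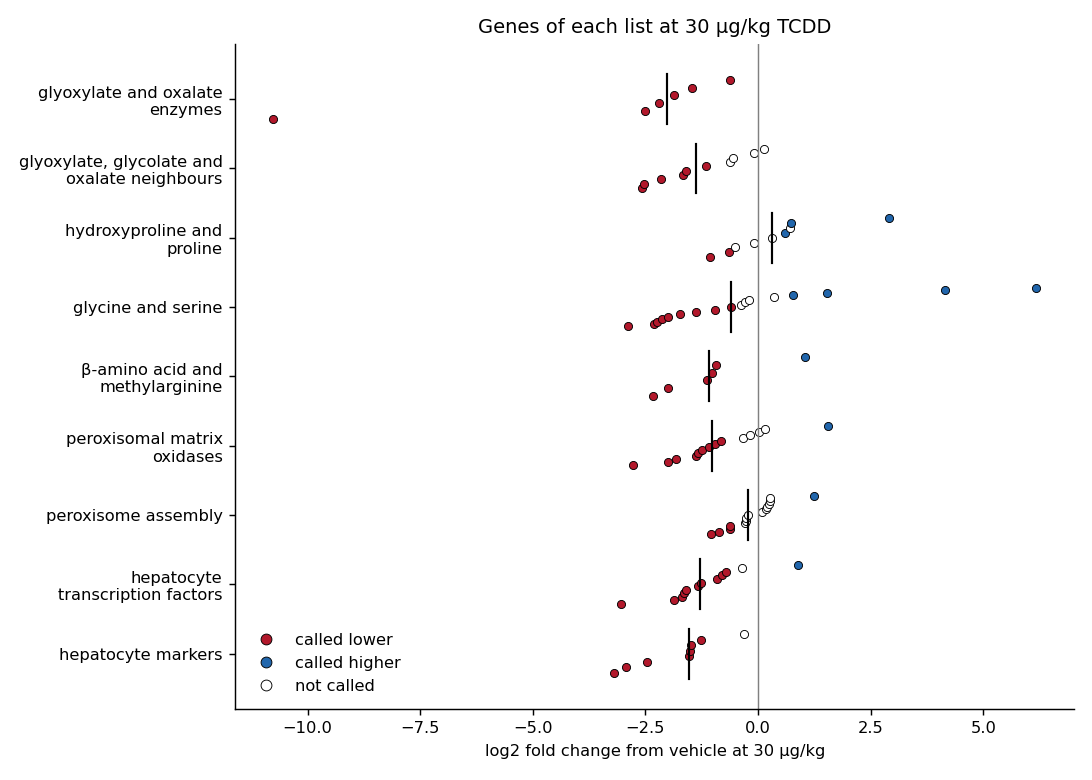
Log2 fold change from vehicle at 30 μg/kg for each tested gene of 9 lists, on a linear axis. Red is called lower, blue called higher, white not called, and the bar is the list median. Hao1 lies alone at -10.76, and the highest point is Psat1 at 6.17 in the glycine and serine list.

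The genes whose pattern most resembled that of Hao1 were found by the Pearson r of log2 CPM over the 40 libraries among 9308 genes. They were Elovl3, a fatty acid elongase (r = 0.987), Sult2a8, a sulfotransferase (0.986), Glo1, the glyoxalase that removes methylglyoxal (0.981), Kmo, kynurenine monooxygenase (0.980), and Pde9a, a cyclic GMP phosphodiesterase (0.976). Over the 30 libraries up to 3 μg/kg, the same r values were lower, from 0.591 for Kmo to 0.777 for Sult2a8. These genes differed in how far they went: Elovl3 was measured at 777 ± 239 CPM in vehicle, 86.2 ± 43.2 CPM at 10 μg/kg and 0.811 ± 1.12 CPM at 30 μg/kg, while Kmo was at 300.0 ± 24.7, 152 ± 21.3 and 60.4 ± 23.5 CPM. The libraries share their dose groups, so r describes a common dose pattern and carries no p.

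For the other tested genes the nearest pattern was that of Aspdh for Agxt (0.980), Upp2 for Agxt2 (0.944), Fcgrt for Grhpr (0.976), Isoc2a for Hoga1 (0.983) and Hyi for Prodh2 (0.987). Hyi was also on the list of neighbouring enzymes. Among the 6 themselves, r ran from 0.709 for Grhpr with Agxt2 to 0.967 for Prodh2 with Hoga1 over all 40 libraries. Over the 30 libraries up to 3 μg/kg it ran from -0.168 for Hoga1 with Agxt2 to 0.743 for Grhpr with Agxt. Apart from Grhpr with Agxt (0.845 over all 40), no pair of the 6 was above 0.415 there. The high r of those other pairs thus rested on the 10 libraries of the 2 highest doses. The nearest genes named in this paragraph kept an r from 0.586 (Aspdh) to 0.882 (Fcgrt) up to 3 μg/kg.

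The sample titles are numbered in a lower and a higher run, and every group has mice in both. Within each run the tested genes kept the direction at 30 μg/kg: the log2 fold change was -10.03 and -11.55 for Hao1, -1.46 and -3.04 for Agxt, -1.91 and -3.14 for Prodh2, -1.21 and -1.71 for Grhpr, -1.26 and -2.54 for Hoga1 and -0.39 and -0.89 for Agxt2, in the lower and the higher run. The lower run holds replicate 1 of the 30 μg/kg group. At 10 μg/kg Hao1 was -3.83 and -3.85. The labels do not say that the runs are batches.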

How the data were processed

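Hepatic RNA-Seq was analysed for 40 mice in 8 groups of 5, grouped by the sample labels. Replicate numbers follow accession order and pair no mice. The p-values measure the spread between mice, which the fit over all libraries pools across all dose groups for each gene. The authors deposited raw counts per gene from the STAR aligner, unstranded and for each strand setting, and the submitters' processing notes name STAR 2.7.3a, Trimmomatic 0.39, FastQC 0.11.7 and the builds GRCm39 and mm10. Reads fell on the strand settings evenly (50.0% to 50.3%), so the unstranded counts were used, and antisense partners cannot be told apart. Rows that name no gene were left out of library sizes. Of all reads, 71.3% to 80.8% were in genes. The authors also deposited a log2 table, which equals a blind variance-stabilizing transformation of the counts within 5.03e-10 and served as an alternative without a further log step.

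Counts were tested with edgeR 4.0.16 (R 4.3.3) over all libraries, with TMM scaling, filterByExpr defaults (minimum count 10, which left 15373 genes), a mean per dose and the quasi-likelihood test of each dose against vehicle. CPM use TMM-scaled library sizes. The study's posterior probability is not installed here, and edgeR took its place with the same fold threshold of 1.5. Lengths, names and positions came from GENCODE M21, which named 52083 of 55359 genes, and the listed symbols Pycr3 and Tf were matched as Pycrl and Trf. The test was tested on simulated data. Intervals and floors (3 counts) cover counting error only, since reads carry no molecular identifiers. In 80 pairs of libraries from the same group, counts always differed by more than sampling noise (chi-square per degree of freedom of at least 11.1).

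The genes, the lists of neighbouring genes and the tests were chosen with earlier results of these data known. All 7 genes are named, with up to 4 called genes per list and direction by size of the log2 fold change at 30 μg/kg, and the nearest genes by Pearson r (5 for Hao1 and 1 for each other gene, mean of at least 100 counts). Other genes were named for their role in the pathway or because they were called at a lower dose, after their values were seen. Alternatives were DESeq2 1.42.0, limma 3.58.1 on the log2 table, other scalings and filters, the strand-specific counts, the title numbering, vehicle and a dose alone, no fold threshold and leaving out each library, and, added later, both libraries that stand apart left out and a scale relative to hepatocyte markers. Protein sequences were not used here. Values of some genes of the lists are not reported here.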

Additional observations from a re-analysis of the deposited data

Results flagged for a closer look

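For each of the 7 genes and 8 groups, the highest and the lowest mouse were compared with the other 4 of the group. A mouse stood apart by Dixon's criterion in 8 of 56 groups, where chance would give about 1 in 20, or 2.8, if the groups were independent. They reuse the same 40 libraries for each gene, so they are not independent, and no excess is read from the 8.

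At 30 μg/kg, replicate 1 stood above its group for Hao1 (0.555 CPM), Hoga1 (94.2 CPM) and Prodh2 (127 CPM). At 10 μg/kg, replicate 3 stood below its group for Hoga1 (84.7 CPM) and replicate 5 stood above it for Prodh2 (240 CPM). Replicate 2 at 10 μg/kg stood above its group for Hao2 (11.0 CPM, 238 counts). At 1 μg/kg, replicate 4 stood above its group for Hao2 (0.606 CPM, 11 counts). At 0.1 μg/kg, replicate 3 stood below its group for Grhpr (231 CPM).

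Over the 6 tested genes at 10 μg/kg, replicate 3 was the lowest of 5 mice for 5 genes and replicate 5 the highest for 4.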

How the results depend on the processing

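No paired analysis was possible because the labels number no mice within groups and name no shared litter, batch or day. Over the alternatives tried for the tested genes at each dose, 908 values moved by less than 1 SD between mice, 27 moved by more and 1, Agxt2 at 30 μg/kg relative to hepatocyte markers (0.65), turned a called value. Of the 936 values, 72 others had the other sign from a reported value that was not called and was at most 0.17 in size. With libraries left out in turn, the number of glyoxylate genes called stayed at 3 at 10 μg/kg and was 5 to 6 at 30 μg/kg. The neighbouring lists gave 7 to 10 higher and 14 to 19 lower calls at 10 μg/kg and 8 to 11 higher and 42 to 47 lower at 30 μg/kg, against 9, 16, 11 and 45 as reported. Over all genes, 13.6% were called higher and 8.13% lower at 10 μg/kg, and 23.2% and 18.9% at 30 μg/kg.

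Without a fold threshold the lists at 10 μg/kg gave 14 higher and 27 lower calls, where 31.8% of all genes passed. Scaling to total counts alone moved the median log2 fold change of all genes to 0.22 at 10 μg/kg and 0.52 at 30 μg/kg, left 2 glyoxylate genes called at 10 μg/kg (Grhpr at -0.55 was not), and gave 21 higher and 30 lower list calls at 30 μg/kg. Over all genes it gave 1559 lower of 7961 calls there, against 2909 of 6476. The same scaling changed the ratio of summed markers at 30 μg/kg to vehicle from 0.424 to 0.587 for hepatocytes, from 4.96 to 6.98 for macrophages, from 7.92 to 11.1 for stellate cells, from 1.54 to 2.15 for endothelium and from 4.17 to 5.86 for lymphocytes. Title numbers up to 27 alone gave 3 higher list calls at 10 μg/kg, and there, as without a filter on low counts, Hao2 was called higher at 10 μg/kg (5.31 and 3.99), with replicate 2 in the group. Vehicle and 3 μg/kg fitted alone called 1 glyoxylate gene, Hao1. The fitted log2 fold change of Hao1 at 30 μg/kg ran from -12.00 to -7.80 over the alternatives, the smallest from limma on the deposited table, in which a count of 0 is 3.98. Apart from these scalings, the causes were not tested. Hao1 at 30 μg/kg and Hao2 are limited by depth.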

Other observations

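Peroxisome assembly genes build the organelle in which Hao1 and Agxt work. Of 15 tested, 4 were called lower at 30 μg/kg and 1 higher, where 18.9% of all genes were called lower and 23.2% higher. Pex16, which inserts membrane proteins, had a log2 fold change of -1.04 (SE 0.18, edgeR adjusted p = 8.51e-06), Pex2, a ubiquitin ligase of the import machinery, -0.88 (SE 0.10, edgeR adjusted p = 7.5e-10), and the import receptors Pex7 and Pex5 -0.63 and -0.62. Pex11a, which elongates peroxisomes and is a target of the receptor PPARα, was higher by 1.25 (SE 0.20, edgeR adjusted p = 1.46e-06). The median of the list was -0.22, beside 0.03 over all genes.

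Of 12 transcription factors of the hepatocyte, 10 were called lower at 30 μg/kg and 1, Cebpb (0.89), higher. The shares over all genes were 18.9% lower and 23.2% higher at 30 μg/kg, and 8.13% and 13.6% at 10 μg/kg. Onecut1 had a log2 fold change of -3.05 (SE 0.77), at 4.08 to 10.4 CPM in vehicle and 0.153 to 2.27 CPM at 30 μg/kg. Ppara, the receptor that drives peroxisomal fatty acid oxidation, had -1.87 (SE 0.21), Foxa1 -1.69 (SE 0.20) and Cebpa -1.65 (SE 0.16). Hnf4a was not called (-0.36, SE 0.12). At 10 μg/kg 2 were called lower, Cebpa (-0.91) and Foxa1 (-0.92), and Cebpb (0.99) was called higher. DESeq2 and limma called 0 of the 12 higher at either dose, and in edgeR Cebpb was the 1 gene higher at an unadjusted p under 0.05.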
